A study of Ovis aries and Bos taurus with 15 samples.

Results

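The genes described here encode the subunits, activators and assembly factors of the proteasome. They were chosen by name, as the probe sets that carry exactly 1 gene symbol in the platform annotation, with a symbol that starts with PSMA, PSMB, PSMC, PSMD, PSME, PSMF or PSMG followed by a digit. This rule found 46 probe sets for 40 genes among the 24016 probe sets tested. It used no measured value. One of the 40, PSME3IP1, is caught by its name alone, since it encodes a protein that binds the activator subunit PSME3 and is no subunit itself, which leaves 39 proteasome genes. PSMA2, PSMA8, PSMB11, PSMD3, PSMD7, PSMD8, PSMD12, PSME3 and PSMG4 were not analysed here because no probe set carried their symbol alone.

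RNA was measured on bovine Affymetrix arrays, with 15 arrays in 3 groups of 5. Ovine cells labelled PAEC, from a study of the pulmonary endothelium, were given GW9662, an irreversible antagonist of the nuclear receptor PPARγ, at 5 µM for 24 h. Bovine control cells, labelled BAEC, are a second species and cell label on the same arrays, and the labels name no agent for them. The ovine vehicle cells, also PAEC, had DMSO, the solvent of the drug. All 3 groups grew in the same serum-containing medium. No label gives a genotype or age, or says whether the 5 samples of a group are separate cultures. The p-values therefore cover the spread among these samples alone, and it may be technical.

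The proteasome is a barrel of stacked rings that cuts proteins marked with ubiquitin into short peptides. Its outer rings are made of alpha subunits and its inner rings of beta subunits, of which PSMB6, PSMB7 and PSMB5 carry the caspase-like, trypsin-like and chymotrypsin-like active sites. A regulatory particle with a base of ATPases and a lid recognises, unfolds and feeds in the ubiquitinated protein, whereas other activators such as the PSME1 and PSME2 ring open the barrel without ATP. In cells exposed to interferon-γ, newly built barrels take up PSMB9, PSMB10 and PSMB8 in place of PSMB6, PSMB7 and PSMB5, and this immunoproteasome favours peptides that fit MHC class I molecules. Endothelial cells are among the cells that make it.

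The deposited values are log2 expression values normalised by RMA, and ran from 0.899 to 14.07 with a median of 3.22 over all arrays. Values under about 3 lie near the floor of the table, where 45.9% of the probe sets tested had their mean over the 15 arrays. Of the endothelial markers, PECAM1 averaged 11.5, 11.7 and 11.6 and CDH5 11.3, 11.6 and 11.5 in GW9662, bovine and vehicle arrays, while VWF stood near the floor in all 3 groups at 2.29, 2.28 and 2.31. In the same order CLDN5 averaged 2.43, 5.03 and 2.45 and KDR 3.79, 3.08 and 2.64. Thus 3 of the 11 endothelial markers measured had a mean under 3 in vehicle arrays. The defining leukocyte markers PTPRC and CD3E, the fibroblast markers COL1A1 and DCN, the smooth muscle marker ACTA2 and all 5 epithelial markers had means under 3 in every group. Other markers of these cells were bright: the fibroblast collagens COL1A2 (10.4, 11.2 and 10.3) and COL3A1 (10.6, 10.4 and 10.4) and the smooth muscle gene TAGLN (7.16, 9.0 and 7.18) in all 3 groups, and the monocyte gene CD14 in the ovine arrays (6.72, 2.27 and 6.69 in GW9662, bovine and vehicle arrays). Vehicle replicate 1 stood apart from its group, with a mean correlation of 0.994 to the other vehicle arrays. For the other arrays the same mean was 0.996 to 0.998. The 3′ minus 5′ difference of 6 control transcripts, a measure of RNA quality, averaged 0.956 ± 0.074 in GW9662 arrays, 0.881 ± 0.043 in bovine arrays and 1.18 ± 0.085 in vehicle arrays (log2, SD, n = 5 each). Neither of the first 2 groups overlapped the vehicle arrays (two-sided exact permutation p = 0.00794 for each comparison, the smallest that 5 against 5 arrays can give). The control probe sets are bovine, so between bovine and ovine arrays RNA quality cannot be told apart from probe match in this measure.

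Most proteasome genes were bright and lay close together in the 3 groups. The mean over the 33 genes other than the immunoproteasome subunits, the measured activators and PSME3IP1 was 9.52 ± 0.042 in GW9662 arrays, 9.55 ± 0.037 in bovine arrays and 9.55 ± 0.070 in vehicle arrays (log2, SD, n = 5 each). The median difference of those 33 genes was −0.04 for GW9662 minus vehicle, with a range of −0.14 to 0.15, and −0.02 for bovine minus ovine vehicle, with a range of −0.36 to 0.41. No member probe set differed by 1 or more on the log2 scale in either comparison, whereas 5.43% of all probe sets tested did so between bovine and ovine vehicle arrays. The comparisons of GW9662 and of bovine cells were made against the same 5 vehicle arrays, so their differences are not independent of each other.

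The first question, which the labels state, is what GW9662 does to ovine cells given the drug. Under GW9662, 0 of the 46 member probe sets passed the limma test at an adjusted p of 0.05, against 0.183% of all probe sets tested (44 of 24016). An unadjusted p under 0.05 was reached by 1 member probe set with a positive difference (background 6.87%) and by 6 with a negative one (background 14.5%). Those 6 were PSMB8, PSMB4, PSMB9, PSMB7, PSMB10 and PSME1. The difference was below 0 for 33 member probe sets and above 0 for 13, while 64.9% of all probe sets tested lay below 0 and 35.1% above. Its median over the members was −0.04, beside −0.02 over all probe sets tested. Over the probe sets with a mean of 3 or more, which nearly all members reach, it was 0.03, of the opposite sign. The shares by sign, by unadjusted p and by lack of overlap count the probe sets near the floor. They were not computed for the brighter ones alone. Once each array was centred on its median, the median difference moved to 0.00 for the members and 0.03 for all probe sets.

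The 3 immunoproteasome subunits had the most negative differences of any class under GW9662, with a median of −0.24 and none past the adjusted threshold. PSMB8, which replaces the chymotrypsin-like subunit, had 8.08, 7.81, 7.92, 7.85 and 8.08 in GW9662 arrays, against 8.23, 8.11, 8.28, 8.26 and 8.13 in vehicle arrays. All GW9662 arrays lay below all vehicle arrays. This was a difference of −0.26 ± 0.062 (SE, log2), or 1.19-fold, with a 95% interval of −0.40 to −0.11 and an adjusted p of 0.172 by limma (unadjusted 0.00266).

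PSMB9, which replaces the caspase-like subunit, had 7.83, 7.78, 7.61, 7.61 and 7.68 in GW9662 arrays, against 7.71, 8.04, 7.97, 7.95 and 7.92 in vehicle arrays. The groups overlapped only through vehicle replicate 1, the lowest of its group. Its difference was −0.21 ± 0.069 (SE, log2; limma adjusted p = 0.217), and −0.26 without that array (adjusted p = 0.165). PSMB10, which replaces the trypsin-like subunit, had 5.83, 6.09, 5.60, 5.66 and 5.83 in GW9662 arrays, against 6.08, 6.10, 6.03, 5.92 and 6.10 in vehicle arrays. GW9662 replicate 2 alone reached into the vehicle range. The difference was −0.24 ± 0.087 (SE, log2; limma adjusted p = 0.217). In a fit that adjusts for the 3′ minus 5′ measure the 3 differences were −0.27, −0.46 and −0.41 for PSMB8, PSMB9 and PSMB10, with adjusted p of 0.918, 0.501 and 0.869. The measure did not overlap between these groups, and 0 of all 24016 probe sets passed in that fit, against 44 without it. Its adjusted p therefore cannot single out a gene, here or below for GW9662.

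The constitutive catalytic subunits had smaller differences under GW9662. PSMB5, the chymotrypsin-like subunit, had 10.94, 10.85, 11.01, 10.79 and 10.95 in GW9662 arrays, against 10.84, 10.93, 10.95, 10.92 and 10.94 in vehicle arrays. The groups overlapped, and the difference of −0.01 had a 95% interval of −0.10 to 0.08 (limma adjusted p = 0.898). PSMB6, the caspase-like subunit, had 9.84, 9.73, 9.79, 9.64 and 9.72 in GW9662 arrays, against 9.71, 9.98, 9.90, 9.52 and 9.83 in vehicle arrays. The GW9662 values all fell inside the wider vehicle range, with a difference of −0.04 and an interval of −0.23 to 0.15 (limma adjusted p = 0.739). PSMB7, the trypsin-like subunit, had 10.04, 9.94, 9.95, 9.82 and 9.91 in GW9662 arrays, against 10.09, 10.14, 10.13, 9.92 and 10.10 in vehicle arrays. Vehicle replicate 4 was the one vehicle array inside the GW9662 range. Its difference of −0.14 ± 0.050 (SE, log2) did not pass (limma adjusted p = 0.217).

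**Figure D1:**
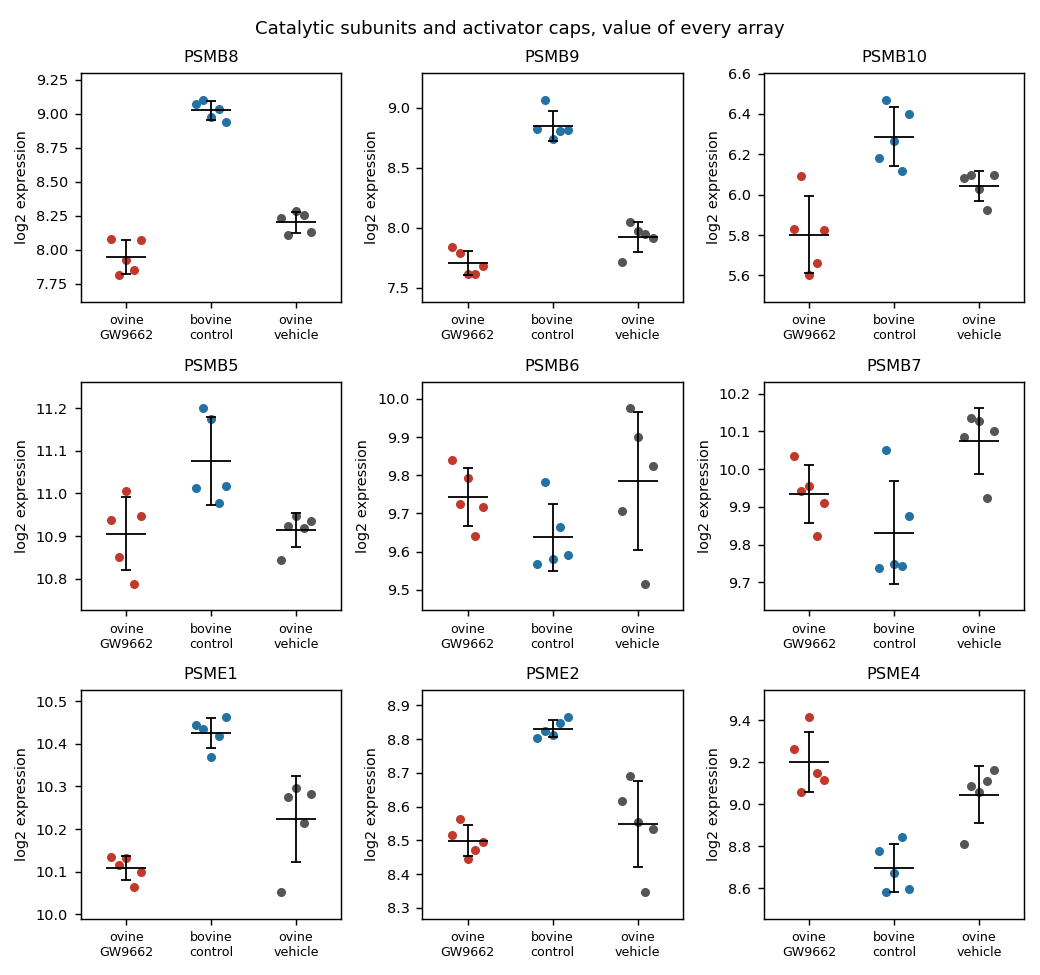
Log2 expression value (y axes, each with its own range) of the immunoproteasome subunits (top), the constitutive catalytic subunits (middle) and the activators (bottom) on each array, with GW9662, bovine control and vehicle arrays from left to right; points are arrays, and black lines give the group mean and its SD (n = 5). PSMB8 and PSMB9 were highest in the bovine arrays, at means of 9.02 and 8.85, and PSMB8 in GW9662 arrays (7.81 to 8.08) lay below every vehicle array (8.11 to 8.28).

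The mean of the 3 immunoproteasome subunits minus the mean of their 3 constitutive counterparts was computed on each array. Its level cannot be read, since probe sets differ in brightness, so only differences between groups are described. Between bovine and ovine arrays such a difference may also carry probe match, which the subtraction need not remove. It averaged −3.04 ± 0.099 in GW9662 arrays, −2.13 ± 0.036 in bovine arrays and −2.87 ± 0.073 in vehicle arrays (log2, SD, n = 5 each). Its range was −3.21 to −2.94 in GW9662 arrays, −2.18 to −2.08 in bovine arrays and −2.93 to −2.74 in vehicle arrays. The 3 groups did not overlap, although the GW9662 and vehicle ranges nearly touched. By pair, PSMB8 minus PSMB5 averaged −2.96, −2.05 and −2.71 in GW9662, bovine and vehicle arrays. PSMB9 minus PSMB6 averaged −2.04, −0.79 and −1.87 in the same order, and PSMB10 minus PSMB7 averaged −4.13, −3.54 and −4.03. In each pair the bovine arrays had the highest mean and the GW9662 arrays the lowest. GW9662 and vehicle arrays were apart only for PSMB8 minus PSMB5 (−3.08 to −2.86 against −2.81 to −2.61). They overlapped for PSMB9 minus PSMB6. For PSMB10 minus PSMB7 every vehicle array lay inside the GW9662 range (−4.35 to −3.85). These measures are given as a description, with no test.

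**Figure D2:**
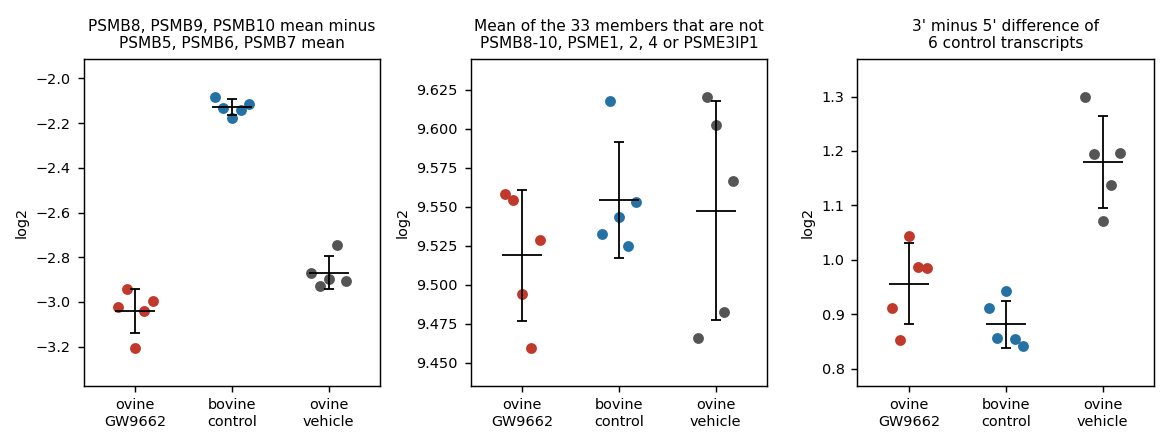
Measures with 1 value per array (y axes, log2), for GW9662, bovine control and vehicle arrays from left to right, with the group mean and SD (n = 5): immunoproteasome minus constitutive subunits, the mean of 33 other member genes, and the 3′ minus 5′ difference of 6 control transcripts. The first measure separates the 3 groups (means of −3.04, −2.13 and −2.87), the second does not (9.52, 9.55 and 9.55), and the third is highest in vehicle arrays (1.18). Between bovine and ovine arrays each measure may also carry probe match.

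Among the activators, PSME1, which forms with PSME2 the ring that favours antigenic peptides, had 10.13, 10.12, 10.13, 10.06 and 10.10 in GW9662 arrays, against 10.05, 10.28, 10.30, 10.21 and 10.28 in vehicle arrays. Vehicle replicate 1 was the lowest of all 10, and the other 4 vehicle arrays lay above every GW9662 array. The difference was −0.12 ± 0.045 (SE, log2; limma adjusted p = 0.218). Without vehicle replicate 1 it was −0.16 with an adjusted p of 0.0471, the one member call that leaving out an array produced for GW9662. PSME2 had a difference of −0.05 ± 0.058 (adjusted p = 0.566). PSME4, a large nuclear activator linked to histone breakdown, had a difference of 0.15 ± 0.084 (adjusted p = 0.276).

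PSMB4, a beta subunit with no active site, was the other member besides PSMB8 whose groups did not overlap under GW9662 (2 of 46 probe sets on the lower side, with a background of 12.7%, and 0 on the higher, with a background of 1.93%). It had 10.87, 10.72, 10.88, 10.86 and 10.88 in GW9662 arrays, against 10.95, 11.03, 10.92, 10.93 and 10.94 in vehicle arrays. The gap between the groups was narrow, at a difference of −0.11 ± 0.035 (SE, log2; limma adjusted p = 0.217), and the difference was −0.02 when adjusted for the 3′ minus 5′ measure (adjusted p = 1.00). The probe set with an unadjusted p under 0.05 on the higher side was the dimmer of 2 for PSMD4, a ubiquitin receptor of the base. It had 6.61, 6.75, 6.54, 6.60 and 6.60 in GW9662 arrays, against 6.27, 6.57, 6.50, 6.36 and 6.45 in vehicle arrays. These groups overlapped and differed by 0.19 ± 0.061 (SE, log2; limma adjusted p = 0.217), while the brighter PSMD4 probe set gave 0.08 (adjusted p = 0.349).

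In the regulatory particle, none of the 6 base ATPases, the 3 other base subunits or the 4 measured lid subunits passed for GW9662, and the class medians were 0.02, −0.01 and −0.01. PSMC4 and PSMC6, ATPases of the base, had the smallest p among the genes with a positive difference, at 0.15 ± 0.071 and 0.13 ± 0.067 (SE, log2; limma adjusted p = 0.239 and 0.257). PSMD14, the lid subunit that removes ubiquitin chains from the substrate, differed by 0.04 (adjusted p = 0.617). PSMD13, another lid subunit, had 6.10, 6.27, 5.93, 5.98 and 6.04 in GW9662 arrays, against 4.97, 6.15, 6.27, 6.01 and 6.18 in vehicle arrays. Its positive difference of 0.15 ± 0.235 (SE, log2; limma adjusted p = 0.677) rested on the low value of vehicle replicate 1, and was −0.09 without that array (adjusted p = 0.472). The alpha ring, the chaperones that build the core and those that build the base also had 0 genes past the threshold, with class medians of −0.03, −0.10 and −0.12.

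The other comparison sets bovine control cells against ovine vehicle cells. It joins species, cell label and the match of each RNA to bovine probes. These cannot be told apart from expression in any difference between bovine and ovine arrays given here. In a bulk RNA sample, fewer cells of a type and less RNA per cell cannot be told apart either. Of the 46 member probe sets, 24 passed the limma test, with a background of 45.2% over all probe sets tested and 52.1% among those with a mean of 3 or more. The members passed about as often as other probe sets of that brightness. Of the 24, 14 were higher in bovine arrays (background 15.6%, or 27.9% at a mean of 3 or more) and 10 were lower (background 29.6%, or 24.3%). With each array centred on its median, 13 were higher and 5 were lower. In a fit adjusted for the 3′ minus 5′ measure, whose groups do not overlap here, 2 member probe sets passed, PSMB8 and PSME3IP1, and 1601 of all probe sets did, against 10860 without it. By the brightest probe set of each gene, 14 of the 40 genes were higher and 8 were lower. The median size of the difference was 0.132 over the members, against 0.249 over the probe sets with a mean of 3 or more. The groups did not overlap for 10 probe sets on the higher side (background 12.5%) and 4 on the lower (background 40.5%). At least 1.5-fold was reached by 2 probe sets on the higher side, PSMB8 and PSMB9 (background 7.20%), and by 1 on the lower, PSME3IP1 (background 5.13%).

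**Figure D3:**
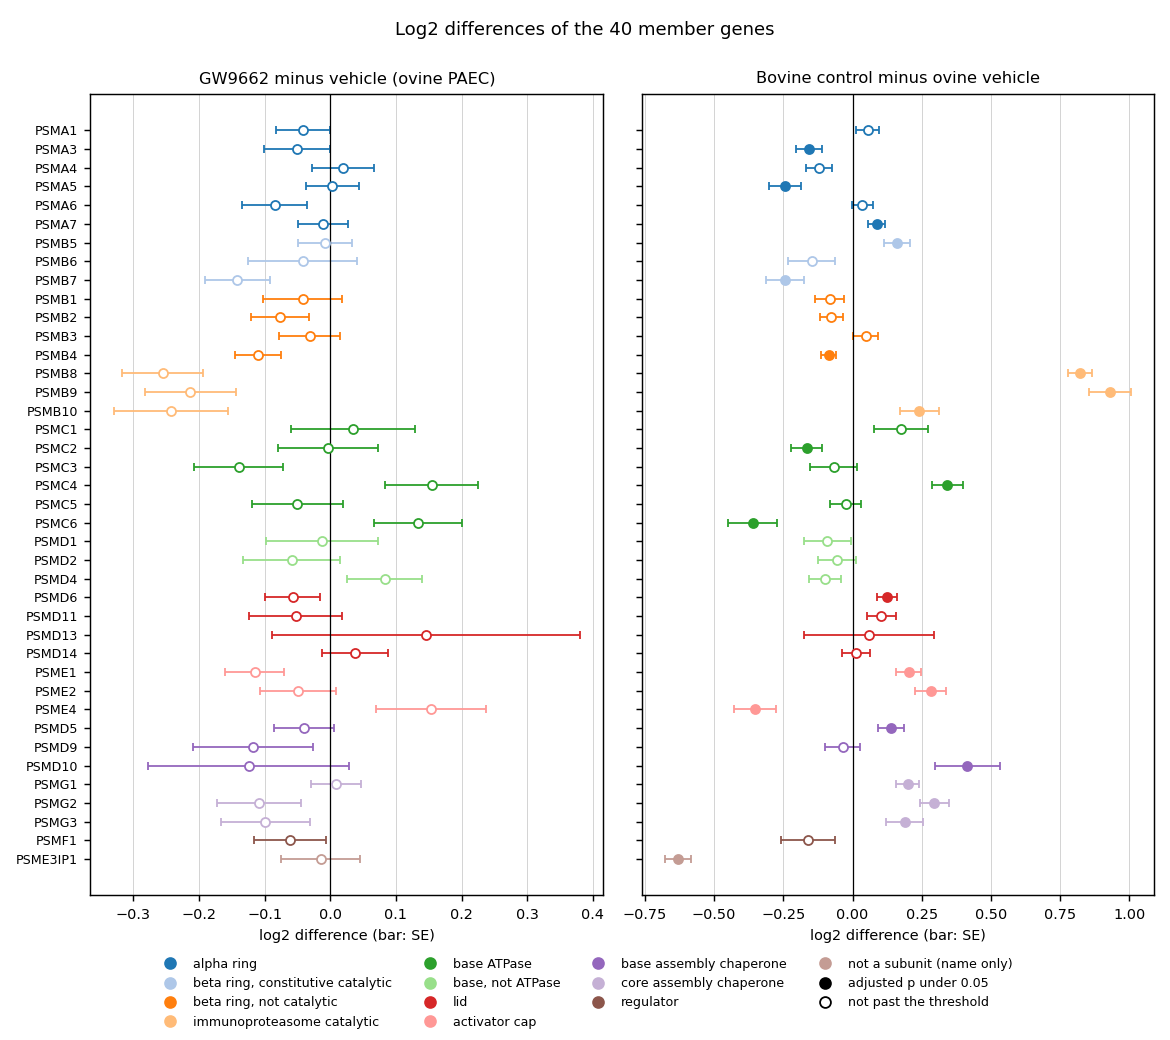
Difference on the log2 scale (x axis) of each member gene, by its brightest probe set, with its standard error, for GW9662 minus vehicle (left) and for bovine control minus ovine vehicle (right, wider axis), genes coloured by their role; filled points passed the test. For GW9662 the values lie between −0.26 and 0.15 and none passed the test; for bovine arrays PSMB8 and PSMB9 stand at 0.82 and 0.93 and PSME3IP1 at −0.63.

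All 3 immunoproteasome subunits were higher in bovine arrays (background 27.9% at a mean of 3 or more). PSMB9 had 8.82, 9.07, 8.74, 8.80 and 8.81 in bovine arrays, against 7.71, 8.04, 7.97, 7.95 and 7.92 in ovine vehicle arrays. Every bovine array was above every vehicle array, by a difference of 0.93 ± 0.076 (SE, log2), or 1.91-fold (limma adjusted p = 1.62e-05). PSMB8 had 9.07, 9.10, 8.97, 9.04 and 8.94 in bovine arrays, against 8.23, 8.11, 8.28, 8.26 and 8.13 in vehicle arrays. These groups were also apart, at 0.82 ± 0.044 (SE, log2), or 1.77-fold (limma adjusted p = 9.35e-07).

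PSMB10 had 6.18, 6.47, 6.27, 6.12 and 6.40 in bovine arrays, against 6.08, 6.10, 6.03, 5.92 and 6.10 in vehicle arrays. The groups were apart by a narrow gap, and the difference was 0.24 ± 0.070 (SE, log2), or 1.18-fold (limma adjusted p = 0.0239). Its adjusted p was 0.0533 without bovine replicate 5 (difference 0.21), 0.0510 without vehicle replicate 4 (0.21) and 0.297 after a second quantile normalisation (0.14). The 3′ minus 5′ measure above moved with this comparison, where it may also carry probe match. When the fit was adjusted for this measure, PSMB8 still passed (0.73, adjusted p = 0.00931), while PSMB9 (0.60, adjusted p = 0.0948) and PSMB10 (0.28, adjusted p = 0.578) did not. Why calls were lost in that fit was not tested.

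Of the 3 constitutive subunits, PSMB5 was higher, PSMB7 was lower and PSMB6 did not pass in bovine arrays. PSMB5 had 11.01, 11.20, 11.17, 10.98 and 11.02 in bovine arrays, above every vehicle array (10.84 to 10.95), and was higher by 0.16 ± 0.047 (SE, log2; limma adjusted p = 0.0246). Without bovine replicate 3 the difference was 0.14 (adjusted p = 0.0514). PSMB7 had 9.74, 10.05, 9.75, 9.74 and 9.88 in bovine arrays, against 10.09, 10.14, 10.13, 9.92 and 10.10 in vehicle arrays, and was lower by a difference of −0.24 ± 0.069 (SE, log2; limma adjusted p = 0.0220). These groups overlapped through bovine replicate 2 and vehicle replicate 4. Without bovine replicate 1, bovine replicate 4 or vehicle replicate 2 the adjusted p of PSMB7 was 0.0534, 0.0506 and 0.05002. PSMB6 had 9.57, 9.78, 9.58, 9.66 and 9.59 in bovine arrays and overlapped the vehicle arrays, with a difference of −0.15, a 95% interval of −0.34 to 0.05 and an adjusted p of 0.171. Without vehicle replicate 4, its lowest vehicle array, the difference was −0.21 (adjusted p = 0.0356).

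Of the 3 activators measured, 2 were higher in bovine arrays and 1 was lower (backgrounds 27.9% and 24.3% at a mean of 3 or more). PSME1 had 10.45, 10.43, 10.37, 10.42 and 10.46 in bovine arrays, against 10.05, 10.28, 10.30, 10.21 and 10.28 in vehicle arrays. PSME2 had 8.80, 8.83, 8.81, 8.85 and 8.87 in bovine arrays, against 8.62, 8.69, 8.55, 8.35 and 8.53 in vehicle arrays. Neither gene's groups overlapped, and the differences were 0.20 ± 0.046 for PSME1 and 0.28 ± 0.056 for PSME2 (SE, log2; limma adjusted p = 0.00936 and 0.00447). Adjusted for the 3′ minus 5′ measure, the difference of PSME1 was −0.05 (adjusted p = 0.945) and that of PSME2 was 0.40 (adjusted p = 0.201). PSME4 had 8.78, 8.58, 8.67, 8.84 and 8.60 in bovine arrays, against 8.81, 9.09, 9.06, 9.11 and 9.16 in vehicle arrays. The overlap came from vehicle replicate 1 alone, and PSME4 was lower by a difference of −0.35 ± 0.076 (SE, log2; limma adjusted p = 0.00721).

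Of the genes that assemble the proteasome, all 3 measured core chaperones and 2 of 3 base chaperones were higher in bovine arrays. The background was 27.9% higher among probe sets with a mean of 3 or more. Among these calls, those of PSMG3 and PSMD5 were lost in most fits that left out 1 array. PSMG1 and PSMG2, which form the pair that lines up the alpha ring, differed by 0.20 ± 0.043 and 0.30 ± 0.052 (SE, log2; limma adjusted p = 0.00729 and 0.00240). Adjusted for the 3′ minus 5′ measure they were 0.01 and 0.39, and neither passed (adjusted p = 1.00 and 0.194). PSMG2 had 10.32, 10.48, 10.41, 10.39 and 10.41 in bovine arrays, against 10.09, 10.28, 9.98, 10.07 and 10.11 in vehicle arrays, with no overlap. The alpha ring chaperone PSMG3 was a dimmer gene at 5.26 to 5.41 in bovine arrays, against 4.99 to 5.28 in vehicle arrays. Its difference of 0.19 (limma adjusted p = 0.0457) passed in 2 of the 10 fits that left out 1 array, those without vehicle replicate 3 or 5, and had adjusted p of 0.0577 to 0.0949 in the other 8. That adjustment turned it to −0.08 (adjusted p = 0.976).

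PSMD10, also called gankyrin, a chaperone of the base ATPases, had 6.67, 7.14, 7.14, 6.88 and 6.93 in bovine arrays, against 6.52, 6.28, 6.74, 6.71 and 6.44 in vehicle arrays. One bovine array lay inside the vehicle range, and the difference was 0.41 ± 0.12 (SE, log2), or 1.33-fold (limma adjusted p = 0.0219). Without bovine replicate 2 it was 0.37 (adjusted p = 0.0503), and after a second quantile normalisation 0.33 (adjusted p = 0.0812). With the replicate block the adjusted p was 0.0632. The adjustment for the 3′ minus 5′ measure gave 0.12 (adjusted p = 1.00). PSMD5, another base chaperone, was higher by 0.14 ± 0.047 (adjusted p = 0.0380) and passed in 3 of the 10 fits without 1 array. Without bovine replicate 1, 2, 3 or 5 or vehicle replicate 2, 4 or 5 its adjusted p was between 0.0522 and 0.0763. PSMD9, the other base chaperone measured, had a difference of −0.04 (adjusted p = 0.645).

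In the base, PSMC4 was higher and PSMC6 was lower in bovine arrays, though both are ATPases of the same ring. PSMC4 had 8.79, 8.95, 8.78, 8.69 and 8.78 in bovine arrays, against 8.37, 8.41, 8.47, 8.42 and 8.60 in vehicle arrays, a difference of 0.34 ± 0.056 (SE, log2), or 1.27-fold (limma adjusted p = 0.00149). PSMC6 had 10.48, 10.03, 10.35, 10.37 and 10.34 in bovine arrays, against 10.54, 10.65, 10.85, 10.62 and 10.72 in vehicle arrays. Both were without overlap. The difference of PSMC6 was −0.36 ± 0.088 (SE, log2; limma adjusted p = 0.0127), and its second probe set gave −0.55 ± 0.089 (adjusted p = 0.00134), also with no overlap. PSMC2, another ATPase of the ring, was lower by its brighter probe set (−0.17, adjusted p = 0.0368), which passed in 4 of the 10 fits without 1 array, whereas its dimmer probe set did not pass (−0.05, adjusted p = 0.474). The adjusted p of the brighter set was 0.0545 to 0.0777 without bovine replicate 2, 3, 4 or 5 or vehicle replicate 2 or 3. For PSMC5 the bright probe set did not pass (−0.02, adjusted p = 0.731), and the one that did (−0.06, adjusted p = 0.0171) lay at the floor, at 2.21 to 2.22 in bovine arrays and 2.24 to 2.30 in vehicle arrays.

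Of the other base subunits and the lid, 1 gene passed in bovine arrays (background 52.1% at a mean of 3 or more). PSMD1, a scaffold of the base, and PSMD4 had differences of −0.09 and −0.10 in bovine arrays and did not pass (limma adjusted p = 0.379 and 0.175). Of the 4 lid genes measured, PSMD6 was higher by 0.12 ± 0.036 (SE, log2; adjusted p = 0.0235). Its second probe set, near the floor, gave −0.06 (adjusted p = 0.649), and without bovine replicate 2 the brighter set gave 0.11 (adjusted p = 0.0517). The brighter set gave 0.09 after a second quantile normalisation (adjusted p = 0.185). Its adjusted p was 0.0637 with dim probe sets left out. PSMD11 gave 0.10 (adjusted p = 0.117) and PSMD14 gave 0.01, with a 95% interval of −0.10 to 0.13. PSMF1, an inhibitor of the core in the test tube, gave −0.16 ± 0.097 (adjusted p = 0.185).

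Of the 6 alpha subunits measured, 1 was higher and 2 were lower in bovine arrays (backgrounds 27.9% and 24.3% at a mean of 3 or more). PSMA5 had 9.74, 9.96, 9.75, 9.65 and 9.80 in bovine arrays, against 9.94, 10.07, 10.09, 9.95 and 10.07 in vehicle arrays, and was lower by a difference of −0.24 ± 0.057 (SE, log2; limma adjusted p = 0.0108). Bovine replicate 2 alone reached the vehicle range. PSMA3 was lower by a difference of −0.16 (adjusted p = 0.0257), with an adjusted p of 0.0606 and 0.0574 without bovine replicate 1 and 2. With arrays centred on their medians PSMA3 gave −0.12 (adjusted p = 0.142). The one higher alpha gene was PSMA7 (0.09, adjusted p = 0.0432), named after its value was seen. Among the beta subunits with no active site, PSMB4 was lower by a difference of −0.09 ± 0.028 (adjusted p = 0.0348) and passed in 4 of the 10 fits without 1 array. Without bovine replicate 1, 3, 4 or 5 or vehicle replicate 1 or 2 its adjusted p was 0.0504 to 0.0730. In the fit adjusted for the 3′ minus 5′ measure PSMB4 gave −0.04 and PSMA3 −0.33 (adjusted p = 0.986 and 0.163). PSMB2 gave −0.08 (adjusted p = 0.143) and 0.01 by its second probe set (adjusted p = 0.914).

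PSME3IP1, the member that is not a subunit, had the most negative difference of the 40 member genes. It had 9.19, 9.37, 9.19, 9.31 and 9.31 in bovine arrays, against 9.88, 9.94, 10.02, 9.83 and 9.85 in vehicle arrays. The groups were well apart, at −0.63 ± 0.047 (SE, log2), or 1.55-fold lower (limma adjusted p = 8.90e-06), and GW9662 arrays had 9.76 to 10.04. Adjusted for the 3′ minus 5′ measure, it still passed (−0.84, adjusted p = 0.00310).

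**Figure D4:**
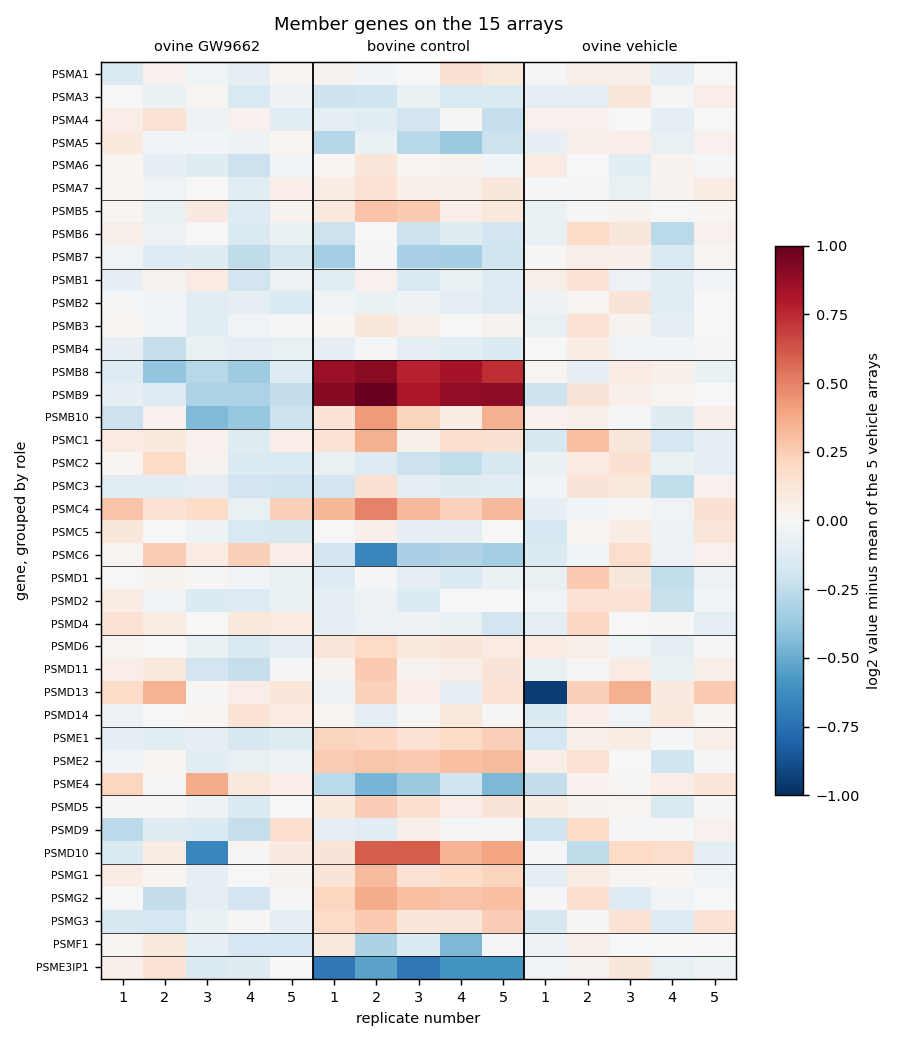
Each of the 40 member genes by its brightest probe set (rows, grouped by role) on each of the 15 arrays (columns, in the order GW9662, bovine control, vehicle), as the log2 value minus the mean of the 5 vehicle arrays, with the colour scale ending at −1 and 1. The immunoproteasome rows are high in the bovine columns, and many rows share a shift within single arrays, such as vehicle replicates 1 and 4 (low) and 2 (high).

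On some arrays most members lay on the same side of their group. On others the split was near even, as on vehicle replicate 5 (25 above, 21 below). The shares of all probe sets given here count those near the floor. They were not computed for the brighter ones alone, so a shift of all bright probe sets cannot be told apart from one of the members. On vehicle replicate 1, 35 of the 46 member probe sets lay below the median of the other 4 vehicle arrays, and on vehicle replicate 4, 33 did, while 57.2% and 54.8% of all probe sets tested lay above it on those 2 arrays. On vehicle replicate 2, 37 lay above it, and 61.9% of all probe sets tested did. GW9662 replicate 4 had 37 members below, the side on which most probe sets tested also lay (32.8% above). On GW9662 replicate 1, 36 members lay above, where 38.7% of all probe sets tested did. In bovine replicate 2, 34 members lay above the other bovine arrays, where 32.4% of all probe sets tested did. The median deviation on these arrays was at most 0.090 in size (log2). For comparison, the median SD of a member probe set was 0.083 in GW9662 arrays, 0.075 in bovine arrays and 0.100 in vehicle arrays.

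Several of these genes lie side by side in the genome, in the ovine RefSeq annotation of assembly ARS-UI_Ramb_v3.0, in which all 40 member genes were found by symbol or synonym. PSMB8 and PSMB9 lie in the MHC region with TAP1 and TAP2, which encode the transporter that carries proteasome products into the endoplasmic reticulum. TAP1, and TAP2 in the bovine comparison, are given for that place and not by their p. TAP1 averaged 7.59 in bovine arrays, against 7.39 in vehicle arrays, a difference of 0.20 ± 0.051 (SE, log2; limma adjusted p = 0.0162), and TAP2 differed by 0.01 (adjusted p = 0.924). Under GW9662, TAP1 differed by −0.02 (adjusted p = 0.790) and TAP2 by −0.12 ± 0.050 (adjusted p = 0.230). PSME1 and PSME2 are also neighbours, with EMC9 between them, and both were higher in bovine arrays as described above.

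Genes around the proteasome were taken from 4 lists, of its partners, its transcriptional control, ubiquitin supply, and interferon signalling with antigen processing. Under GW9662, 0 genes of any of the 4 lists passed the limma test. An unadjusted p under 0.05 was reached by 3 partners with a positive difference and 1 with a negative one. It was reached by 1 interferon or antigen-processing gene on each side, and by 0 genes of the other lists. The backgrounds were 6.87% higher and 14.5% lower over all probe sets tested, which count those near the floor. Of the 16 partners measured, 10 had a positive difference (background 35.1%). Their median was 0.09, beside 0.03 over the probe sets with a mean of 3 or more. RAD23B, which shuttles ubiquitinated proteins to the proteasome, averaged 10.89 ± 0.093 in GW9662 arrays and 10.67 ± 0.061 in vehicle arrays (log2, SD, n = 5 each). These groups did not overlap, with a difference of 0.22 ± 0.048 (SE, log2; limma adjusted p = 0.138, and 0.0469 in a fit of all 15 arrays). Adjusted for the 3′ minus 5′ measure the difference was 0.10 (adjusted p = 1.00). UBQLN2, another shuttle factor, gave 0.18 (adjusted p = 0.222), and POMP, the chaperone that completes the core, gave 0.17 (adjusted p = 0.226). CALR, a chaperone of the peptide-loading complex, gave 0.41 ± 0.13 (adjusted p = 0.217). With that adjustment UBQLN2 gave 0.10, and POMP and CALR changed sign to −0.10 and −0.11. STAT2, which carries the type I interferon signal, gave 0.15 (adjusted p = 0.280), and the median of its list of 12 measured genes was 0.03.

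Of the 10 measured genes of transcriptional control and NRF1 processing, the ubiquitin ligase subunit FBXW7 gave 0.39 (limma adjusted p = 0.325; 0.18 without vehicle replicate 1 and 0.13 when adjusted for the 3′ minus 5′ measure), the small MAF factor MAFF −0.07 (adjusted p = 0.347) and the glycosyltransferase OGT, at the floor, −0.02 (adjusted p = 0.241). The ubiquitin-activating enzymes UBA6 and UBA1 gave 0.29 and −0.07 (adjusted p = 0.236 and 0.534), and UBA6 was 0.18 without vehicle replicate 1 and −0.06 in the adjusted fit.

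In bovine arrays, 7 of the 16 partners were higher and 3 were lower, with a median of 0.21, beside backgrounds of 27.9% higher and 24.3% lower among probe sets with a mean of 3 or more. Adjusted for the 3′ minus 5′ measure, 0 of them were higher and 1, RAD23B, was lower. AKIRIN2, which brings proteasomes into the nucleus, averaged 9.88 ± 0.094 in bovine arrays and 9.16 ± 0.11 in vehicle arrays (log2, SD, n = 5 each), a difference of 0.72 ± 0.062 (SE; limma adjusted p = 2.22e-05). ZFAND5, a stimulator of proteasome activity, was higher by 0.82 (adjusted p = 0.000295), and RAD23B was lower by a difference of −0.31 (adjusted p = 0.00023). That adjustment gave 0.40 for AKIRIN2, 0.67 for ZFAND5 and −0.42 for RAD23B (adjusted p = 0.117, 0.277 and 0.0487). None of the 10 genes of transcriptional control was higher and 5 were lower (background 29.6%, or 24.3% at a mean of 3 or more), and the same adjustment left 2 lower. The 5 include OGT, which lay at the floor with means of 2.29 in bovine arrays and 2.32 in vehicle arrays. NFE2L1, which encodes NRF1, the transcription factor that raises proteasome genes when the proteasome is inhibited, averaged 9.54 ± 0.066 in bovine arrays and 9.97 ± 0.078 in vehicle arrays, a difference of −0.42 ± 0.044 (SE; limma adjusted p = 7.78e-05). SEL1L and SYVN1, the ubiquitin ligase pair of the endoplasmic reticulum that degrades NRF1, were lower by differences of −0.45 and −0.31 (adjusted p = 0.000747 and 0.00752). Adjusted for the 3′ minus 5′ measure, NFE2L1 still passed (−0.50, adjusted p = 0.0471), whereas SEL1L (−0.45, adjusted p = 0.266) and SYVN1 (−0.09, adjusted p = 0.967) did not.

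Of the 12 interferon and antigen-processing genes, 3 were higher and 2 were lower in bovine arrays, with a median of −0.02 and the backgrounds just given. Adjusted for the 3′ minus 5′ measure, 0 were higher and 2 were lower. ERAP1, the peptidase that trims peptides after the proteasome, averaged 5.18 ± 0.14 in bovine arrays and 7.26 ± 0.16 in vehicle arrays, a difference of −2.09 ± 0.089 (SE, log2; limma adjusted p = 2.19e-07). CALR was higher by 1.24 (adjusted p = 4.18e-05) and STAT2 by 0.59 (adjusted p = 0.00317). The adjusted fit gave −2.27 for ERAP1 (adjusted p = 0.00124), and 0.61 for CALR and 0.74 for STAT2, which did not pass in it (adjusted p = 0.196 and 0.264). UBA1 and UBA6 gave 0.13 and 0.02 (adjusted p = 0.125 and 0.890), and UBA6 turned to −0.45 in the adjusted fit (adjusted p = 0.588). IRF1 and NLRC5, which act on immunoproteasome and MHC class I genes after interferon-γ, had no probe set with their symbol alone and were not analysed here.

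**Figure D5:**
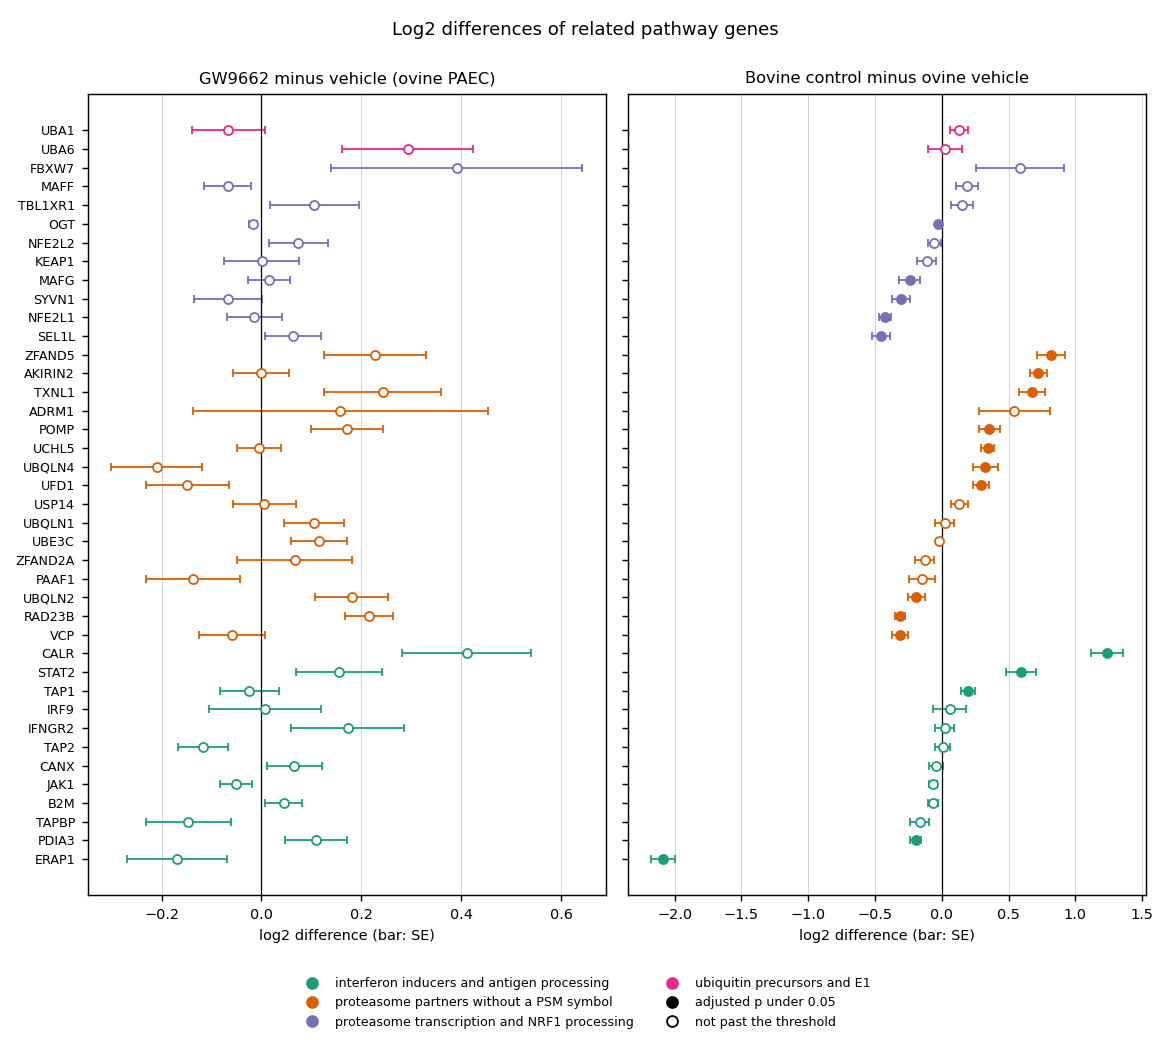
Difference on the log2 scale (x axis), with its standard error, of the measured genes of the 4 lists around the proteasome, for GW9662 minus vehicle (left) and for bovine control minus ovine vehicle (right, wider axis); filled points passed the test. No gene passed for GW9662; in bovine arrays ERAP1 stands lowest at −2.09 and CALR highest at 1.24.

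Some markers of other cells differed between bovine and vehicle arrays. The summed linear level of the 6 smooth muscle markers was 521 to 632 in bovine arrays, against 167 to 214 in vehicle arrays. This sum was mostly TAGLN, at a mean log2 value of 9.0 in bovine arrays and 7.18 in vehicle arrays. SMTN averaged 5.19 and 3.91 in the same order. ACTA2, MYH11, CNN1 and DES lay under 3 in both groups, and the differences of MYH11, CNN1 and DES were negative. For the 6 fibroblast markers the sums were 3717 to 3873 in bovine arrays and 2527 to 2856 in vehicle arrays, with COL1A1, PDGFRA, DCN and LUM under 3 in both groups. COL1A2 averaged 11.24 in bovine arrays and 10.33 in vehicle arrays and was higher by 0.91 (limma adjusted p = 4.13e-06), while COL3A1 averaged 10.41 and 10.44 (adjusted p = 0.281). For the 6 leukocyte markers the sums were 30.2 to 31.7 and 115 to 142, a difference that came from CD14 (2.27 in bovine arrays and 6.69 in vehicle arrays). For the 5 epithelial markers, all near the floor, they were 25.4 to 25.7 and 25.9 to 28.0. For the 11 endothelial markers they were 12374 to 13347 and 10790 to 11793. Of these genes, 5 were higher and 3, ERG, MCAM and VWF, were lower in bovine arrays (backgrounds 15.6% and 29.6%). The part of these markers in the differences of the proteasome genes was not tested. Under GW9662 the endothelial sum was 9589 to 10674, against 10790 to 11793 in vehicle arrays, with 0 of the 11 genes past the limma threshold. An unadjusted p under 0.05 was reached by 4 with a negative difference (background 14.5%) and 1 with a positive one (background 6.87%). The smooth muscle sum (165 to 207), the fibroblast sum (2740 to 3042), the leukocyte sum (124 to 148) and the epithelial sum (25.6 to 26.4) overlapped those of the vehicle arrays.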

How the data were processed

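Total RNA from 15 samples was labelled and hybridised to Affymetrix bovine arrays. The deposited table holds 24128 probe sets as log2 values. Per the submitters' processing notes the authors used RMA, whose version is not given in the sources used here. This method removes background, forces the arrays to one distribution by quantiles, and combines the probes of each set. No signal over background was at hand, so low values and absent transcripts look alike, and the number of arrays limits the precision.

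Control probe sets (112) did not enter the tests. Of the other 24016, 13292 had 1 symbol in the platform annotation (9155 genes), 86 had several and 10638 had none. For each comparison a limma model (version 3.58.1, R 4.3.3; lmFit, then eBayes) was fitted to its own 10 arrays and adjusted by Benjamini-Hochberg over the 24016 probe sets. "Passed", "higher" and "lower" refer to an adjusted p under 0.05, all from limma. Where a member gene had 2 probe sets (6 genes), the brightest over the 15 arrays stands for it. The same choice was made for genes of the pathway and marker lists. Some of these had 2 or 3 probe sets, such as ZFAND5 and AKIRIN2, and their other probe sets are not given here. Intervals are 95% intervals of the fit. The fits were tested on simulated data.

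Named genes were the catalytic subunits, the activators, PSME3IP1, up to 6 members of smallest p per direction for GW9662, for bovine cells up to 10 per direction past the threshold and the 2 of smallest p per class, members whose probe sets differed in call, and up to 3 genes per pathway list and comparison. The members, lists and rules were chosen with earlier results of these data known. No pairing of arrays by replicate number was seen: the correlation of deviations between arrays of the same number was −0.19 to 0.17, and no array correlated best with its own number. With so few arrays this check cannot exclude a pairing. No 2 arrays held identical values. Alternatives covered scaling, dim probe sets, variance, covariates and single arrays.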

Additional observations from a re-analysis of the deposited data

Results flagged for a closer look

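Dixon's criterion was applied to the member genes picked by the naming rule and to measures with 1 value per array. In 7 of 99 groups of 5 arrays, 1 array lay far from the other 4 by this criterion, which marks about 5% of groups by chance. PSMA7 and the genes of the pathway lists were not included. In vehicle arrays, PSMD13 was lowest on replicate 1 at 4.97 (group median 6.15), PSMB5 was lowest on replicate 1 at 10.84 (group median 10.93), PSMB7 was lowest on replicate 4 at 9.92 (group median 10.10) and PSMB4 was highest on replicate 2 at 11.03 (group median 10.94). In GW9662 arrays, PSMB4 was lowest on replicate 2 at 10.72 (group median 10.87). In bovine arrays, PSMB9 was highest on replicate 2 at 9.07 (group median 8.81) and PSMD4 was lowest on replicate 5 at 8.90 (group median 9.02).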

How the results depend on the processing

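For GW9662, 0 member probe sets passed under each alternative except leaving out vehicle replicate 1, which gave 1 (PSME1, lower), so the range without 1 array was 0 to 1. The fit adjusted for the 3′ minus 5′ measure and the replicate block called 0 of all probe sets tested for GW9662. For bovine against vehicle cells the 24 calls (14 higher, 10 lower) became 18 (13 and 5) with arrays centred on their medians, 16 (8 and 8) after a second quantile normalisation, 3 (2 and 1) at 1.5-fold or more and 2 (1 and 1) when adjusted for the 3′ minus 5′ measure. Leaving out 1 array gave 17 to 23 calls, with 9 to 13 higher (9 without bovine replicate 2) and 7 to 12 lower. Array weights, trended variance, the fit of 15 arrays and the plain test for each probe set gave 22 or 23, and leaving out dim probe sets gave 19. The replicate block gave 0 member calls for GW9662 and 19 for bovine cells (11 higher, 8 lower), and no pairing by number was seen.

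Each difference that changed sign under GW9662 had not passed. Centring gave 0.034 for PSMB5, 0.00066 for PSMB6, 0.028 for PSME3IP1 and 0.025 for OGT, and the quantile step gave 0.0039 for OGT. Array weights gave −0.0010 for PSMD14 and −0.038 for PSMD13. Adjusting for the 3′ minus 5′ measure gave −0.057 for PSMC6, −0.68 for PSMD13, −0.11 for CALR, −0.10 for POMP and −0.064 for UBA6. Without 1 array the ranges were −0.033 to 0.021 for PSMB5, −0.11 to 0.0059 for PSMB6, −0.052 to 0.019 for PSME3IP1 and −0.091 to 0.23 for PSMD13. For bovine cells, centring gave 0.011 for PSMC5, and adjusting for the 3′ minus 5′ measure gave −0.052 for PSME1, −0.080 for PSMG3, −0.085 for PSMD11 and −0.45 for UBA6. UBA6 was −0.031 after the quantile step and −0.014 with array weights. Without 1 array the ranges were −0.067 to 0.0069 for PSMC5 and −0.087 to 0.083 for UBA6. The cause of these changes was not tested. Probe sets at the floor, such as those of OGT and the dimmer one of PSMC5, have no reliable direction.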
